A study of Arabidopsis thaliana with 2 samples.

Results

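Chlorophyll is made in plastids from the tetrapyrrole pathway, and 10 nuclear genes of that pathway in Arabidopsis thaliana, listed by locus identifier, are described here. They were HEMA1 and FLU, which act at the entry to the pathway, CHLI1, CHLH and GUN4, which act at magnesium insertion, CRD1, the cyclase, the protochlorophyllide reductases PORA, PORB and PORC, and CAO, which makes chlorophyll b. Of the 10 genes, 9 had a row among the 18617 rows of the deposited table. PORA (AT5G54190) had none, and no value is given for it. The study profiled shoots of seedlings by RNA sequencing in Col-0, the wild-type accession, and in bts-1, a mutant of the gene BRUTUS (BTS), whose ubiquitin ligase product restrains the iron deficiency response. Plants of both genotypes were grown on 1/2 MS medium lacking sucrose. Each genotype had 1 library, so no standard deviation and no p-value can be given and no difference has a replicate check. The nature of the bts-1 allele, the age of the seedlings, the light regime, the hour of harvest and the number of plants in each library are not stated in the labels used here.

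The pathway starts from glutamate bound to its transfer RNA, which glutamyl-tRNA reductase and an aminotransferase turn into aminolevulinic acid. A shared series of enzymes builds protoporphyrin IX, into which magnesium chelatase inserts magnesium for chlorophyll and ferrochelatase inserts iron for heme. The magnesium branch then closes a further ring, reduces protochlorophyllide in a reaction that needs light, and attaches a phytol tail. Free intermediates of this branch pass light energy to oxygen, and plants limit their accumulation at the entry step and at magnesium chelatase. The cyclase and CAO both carry iron.

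Levels are given as log2(FPKM + 1), the scale on which the table was read, where FPKM is the count of sequenced fragments scaled by transcript length and library size. Log2 ratios were formed by subtracting the wild-type value from that of bts-1, and where a pair of levels is given the wild-type one comes first. A gene counted as tested if its FPKM was at least 1 in either library, which 18510 genes and all 9 listed genes with a row passed. The values carry no read counts, so their depth is unknown and counting intervals cannot be formed. BTS itself (AT3G18290) had a wild-type level of 10.84 and a bts-1 level of 9.57, a log2 ratio of -1.27. Levels of chromosome 3 genes are uncertain, BTS included: there the level fell as the exons of the following gene on the chromosome grew longer, with a slope of -0.57 (SE 0.03) in log2 level per log2 length, against slopes of -0.02 to 0.04 on the other chromosomes. Rescaled by exon lengths, BTS stood at 6.63 and 5.38, a log2 ratio of -1.25. FLU, GUN4 and CRD1 lie on chromosome 3, so for these 3 genes too a rescaled level is printed where levels are compared. Leaf markers were abundant, with 5 of 5 between 10.46 and 12.58 in wild type and between 10.10 and 12.55 in bts-1 as deposited. Their log2 ratios ran from -0.36 for RBCS1B (AT5G38430) to -0.03 for GAPA1 (AT3G26650). GAPA1 and CA1 (AT3G01500) lie on chromosome 3, and rescaled they stood at 10.38 and 10.35 for GAPA1 and at 10.73 and 10.61 for CA1. Of 8 root markers 4 had a row, and the 4 log2 ratios ran from -0.03 to 0.56. PHT1;1 (AT5G43350) stood at 2.22 and 2.78. The chromosome 3 gene PYK10 (AT3G09260) stood at 10.06 and 10.19 as deposited and at 9.65 and 9.78 after rescaling. Its deposited level exceeded that of 99.6% of tested genes in both libraries, and the part of root tissue in it was not tested. Since bulk tissue was used, fewer cells of a type and less RNA per cell cannot be told apart in any value below.

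Of the 9 measured genes, PORB was at least 2-fold higher in bts-1 and the other 8 stayed within a log2 ratio of -0.11 to 0.36. Across all tested genes 1.92% were higher by 2-fold or more. Lower values by that factor were found for 3.63% of all tested genes and for 0 of the 9 listed genes. A positive ratio was found for 4 of 9 listed genes, PORB, CAO, HEMA1 and FLU, against 54.8% of all tested genes. The median log2 ratio of the 9 was -0.02, beside 0.04 for all tested genes. Without chromosome 3, which leaves 6 listed genes, these medians were 0.0805 and 0.0447. Their median absolute log2 ratio was 0.11, beside 0.25, and 7 of 9 lay below that second value. Highly expressed genes offer a closer background. Among 1460 tested genes that reached an FPKM of 100 in wild type or bts-1, a limit set with the values in view, the median absolute log2 ratio was 0.20, and for the 7 listed genes of that level it was 0.03. PORB, at 98.7 FPKM in bts-1, lay just under that limit, and with it the median of the 8 was 0.07. The summed FPKM of the 8 genes other than PORB was 3840 in wild type against 3860 in bts-1. That sum takes the chromosome 3 genes CRD1, GUN4 and FLU at their deposited, uncertain levels. Its largest terms were CRD1, at 1757 and 1716, and CHLH, at 967 and 948.

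**Figure D1:**
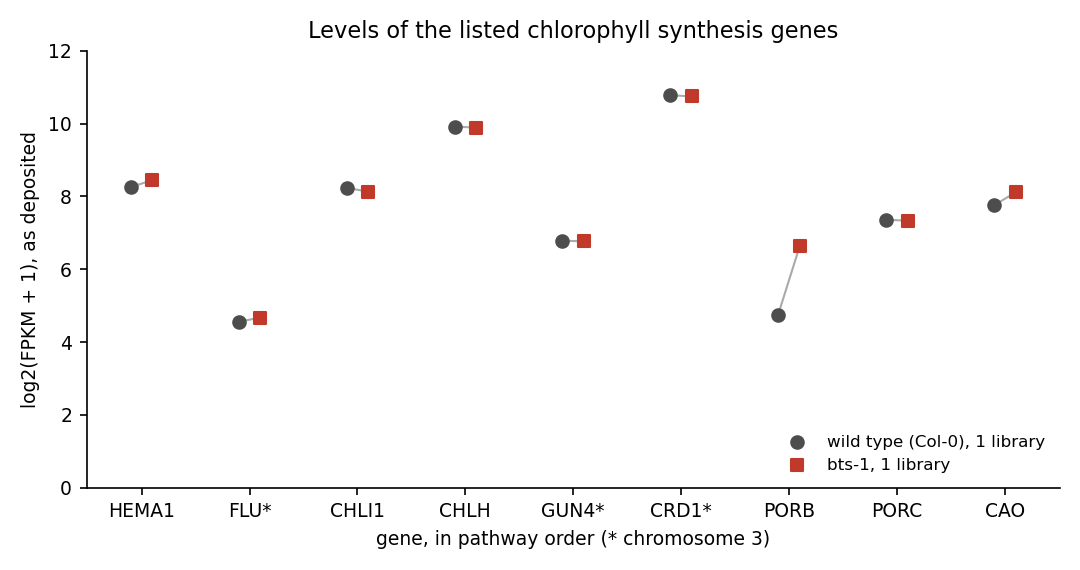
Level of each measured gene as log2(FPKM + 1) on the vertical axis, in pathway order, with wild type as circles and bts-1 as squares, 1 library each and no error bars. The line joining the symbols is steep for PORB, from 4.76 to 6.64, and nearly flat for CRD1, CHLH, GUN4 and PORC.

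**Figure D2:**
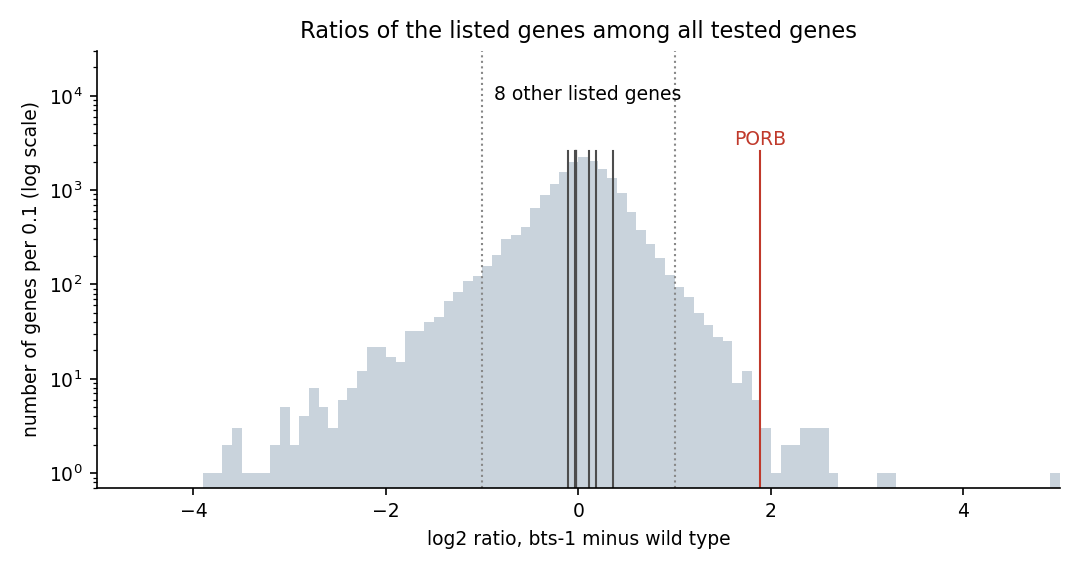
Number of tested genes per 0.1 of log2 ratio, on a logarithmic vertical axis, with values beyond the axis limits counted in the outermost bins. Solid vertical lines mark the 9 listed genes and dotted lines a 2-fold difference. PORB at 1.88 lies in the sparse upper tail, and the other 8 lie in the central peak.

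At the entry to the pathway, HEMA1 (AT1G58290), the main glutamyl-tRNA reductase of green tissue, measured 8.26 in the wild-type library and 8.45 in that of bts-1, or 306 and 348 FPKM. Its log2 ratio was 0.19, a ratio that 33.3% of tested genes reached or exceeded. FLU (AT3G14110), which binds glutamyl-tRNA reductase and represses aminolevulinic acid synthesis in darkness, stood at 4.56 and 4.67 as deposited and at 6.13 and 6.24 after rescaling, with a log2 ratio of 0.11 on both scales. Enzyme and repressor of the step both had positive ratios below 0.25, the median absolute log2 ratio of all tested genes. Of those genes 54.8% had a positive ratio. HEMA2 (AT1G09940), the isoform known from roots and stress, stood at 3.94 and 4.06. It supplied 4.48% of the summed HEMA1 and HEMA2 FPKM in wild type, and 4.31% in the mutant, so the balance of the isoforms was nearly the same in both libraries. Coding sequences of HEMA1 and HEMA2 were 79.9% identical, with a longest shared run of 49 bases. Of the other genes of aminolevulinic acid synthesis, 5 of 6 were measured, 0 passed 2-fold in either direction and the median log2 ratio was 0.10. For all tested genes 1.92% passed 2-fold upward and 3.63% downward, and the median was 0.04. GBP (AT3G21200), which binds glutamyl-tRNA reductase, had the highest ratio of these at 0.28, and the glutamyl-tRNA synthetase gene GluRS (AT5G64050) the lowest at -0.11.

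The 3 listed genes of magnesium chelatase differed little between the libraries, with log2 ratios of -0.11 to -0.02. CHLH (AT5G13630, also GUN5), the large subunit that binds protoporphyrin IX, measured 9.92 in the wild-type library and 9.89 in that of bts-1, or 967 and 948 FPKM. CHLI1 (AT4G18480), the main ATPase subunit, stood at 8.24 and 8.13, and its log2 ratio of -0.11 was the lowest among the listed genes. GUN4 (AT3G59400), which binds porphyrins and stimulates the chelatase, stood at 6.79 and 6.77 as deposited and at 8.88 and 8.85 after rescaling, with a log2 ratio of -0.02 on both scales. The GUN4 locus overlaps AT3G59410 on the opposite strand over 946 bases, 73.0% of its span. That neighbour, also a chromosome 3 gene of uncertain level, stood at 9.04 and 9.06 as deposited. The libraries were made with a directional kit, so reads carry their strand. The sources used here do not say whether reads were counted by strand, so reads of the pair may not have been separated.

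The remaining subunits of the chelatase, which are outside the listed genes, had positive ratios, as did 54.8% of all tested genes. CHLD (AT1G08520), the subunit that links the ATPase ring to CHLH, stood at 6.89 and 7.16, a log2 ratio of 0.27. CHLI2 (AT5G45930), the minor isoform of the ATPase subunit, stood at 5.25 and 5.74, a log2 ratio of 0.49. CHLI2 contributed 11.0% of the summed FPKM of CHLI1 and CHLI2 in wild type against 15.8% in bts-1, while the sum itself was 338 and 332. CHLI1 and CHLI2 coding sequences were 80.6% identical, and their longest identical run was 44 bases. The FPKM of CHLH was 8.21 times that of CHLD in wild type and 6.66 times in bts-1.

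CRD1 (AT3G56940), the iron-containing subunit of the cyclase that forms the fifth ring of chlorophyll, was the most abundant listed gene in both libraries, with 10.78 for wild type and 10.75 for bts-1. It remained first after rescaling, at 10.56 and 10.53, and its log2 ratio was -0.03 on both scales. Its locus overlaps opposite-strand loci at AT3G56950, over 147 bases, and AT3G08795, over 259 bases. Smaller overlaps with an opposite-strand gene, of 36 to 121 bases, were annotated for FLU, CHLI1, PORB, PORC and CAO. In wild type the deposited level of CRD1 exceeded that of 99.8% of tested genes.

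Protochlorophyllide reductase genes diverged. PORB (AT4G27440), one of the light-dependent reductases of green tissue, measured 4.76 in the wild-type library and 6.64 in that of bts-1, or 26.0 and 98.7 FPKM. Its log2 ratio of 1.88, a 3.69-fold difference on the scale with the pseudocount, was reached or exceeded by 22 of the 18510 tested genes, PORB among them. Of 8885 genes with a wild-type FPKM of 10 to 100, limits set with the values in view, 71 were at least 2-fold higher and 3 had a ratio as high as that of PORB, itself included. PORC (AT1G03630), the isoform of mature green leaves that gains importance in strong light, stood at 7.36 and 7.34, FPKM values of 163 and 160, with a log2 ratio of -0.02. The PORC level was 6.27 times that of PORB in wild type and 1.63 times in bts-1, so PORC remained the more abundant in both libraries. Together both genes had a summed FPKM of 189 in wild type against 259 in bts-1, of which PORB supplied 13.8% and 38.1%.

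Shared sequence among these reductases was examined because PORA, the form known from dark-grown seedlings, has no row and resembles PORB. The coding sequences of PORA and PORB were 82.5% identical, those of PORB and PORC 72.5% and those of PORA and PORC 71.8%. No stretch of 50 bases of the PORA coding sequence occurred unchanged in that of PORB, and the longest identical run, shown here, was the first 44 bases of both.
PORA and PORB, first 44 coding bases: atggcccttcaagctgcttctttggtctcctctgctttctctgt
Between PORB and PORC the longest identical run was 20 bases. At its 3′ end PORB overlaps AT4G27450 on the opposite strand by 71 bases, 3.75% of its span, and that neighbour stood at 7.27 and 7.57, a log2 ratio of 0.30. The part of the overlap and of PORA reads in the PORB value was not tested.

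**Figure D3:**
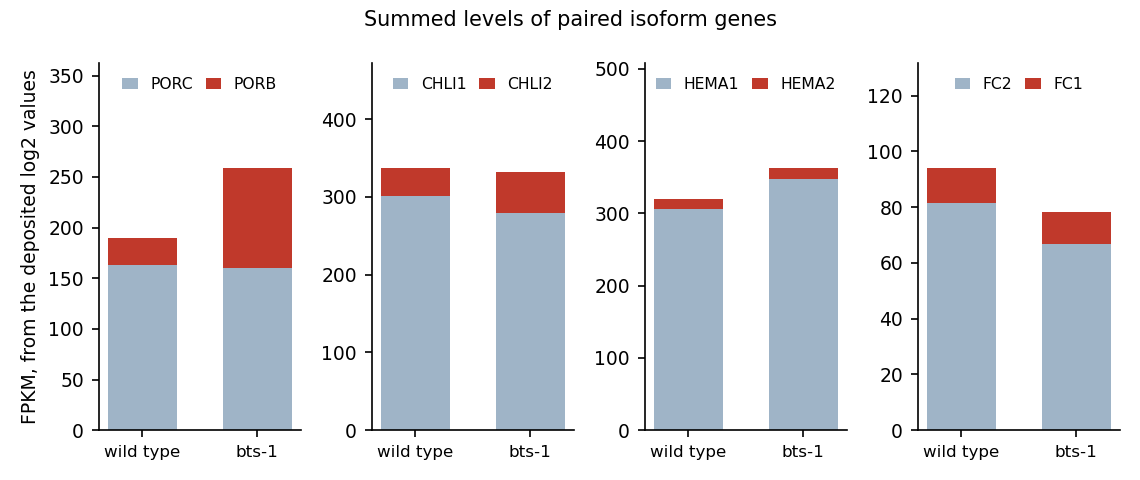
Summed FPKM of paired isoform genes in wild type and bts-1, 1 library each, with a separate vertical scale in each panel and all bars starting at 0. The PORB segment grows from 26.0 to 98.7 on a near-constant PORC segment. In the other panels the minor isoforms CHLI2, HEMA2 and FC1 supply between 4.31% and 15.8% of the sum in either library.

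CAO (AT1G44446, named CH1 in the table), an oxygenase with a Rieske iron-sulfur centre that converts chlorophyllide a to chlorophyllide b, measured 7.75 in the wild-type library and 8.11 in that of bts-1. Those levels correspond to FPKM values of 215 and 276, and the log2 ratio of 0.36 was the highest among the listed genes after PORB. A ratio at least as high was found for 18.1% of tested genes. Of 3 other enzymes of the same Rieske family, among them the chlorophyll breakdown enzyme PAO, 3 had negative ratios and 0 passed 2-fold. Those ratios were small, from -0.01 for PTC52 (AT4G25650) to -0.22 for TIC55 (AT2G24820). Over all tested genes 54.8% had a positive ratio, 1.92% passed 2-fold upward and 3.63% downward, and the median absolute log2 ratio was 0.25. CAO and CRD1, the listed enzymes that carry iron, had ratios of 0.36 and -0.03.

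The sequences upstream of the protochlorophyllide reductase genes are shown because PORB and PORC, which encode the same enzymatic step, stood far apart in their ratios. Each is the 250 bases before the annotated gene start in the TAIR10.1 assembly, 5′ to 3′ on the strand of the gene. Capitals mark matches, on either strand, to motifs searched in all listed genes: the G-box CACGTG, a site of light-signalling factors, CCAATC, a site of the GLK factors that promote chloroplast development, CACGCGC, a site of FHY3 and FAR1, and AAATATCT, the evening element of clock-controlled genes. PORA lies at chr5:21992815-21993064 on the minus strand, PORB at chr4:13725296-13725545 on the plus strand and PORC at chr1:907273-907522 on the plus strand. The letters of the G-box read the same on both strands, and no matches overlapped.
PORA: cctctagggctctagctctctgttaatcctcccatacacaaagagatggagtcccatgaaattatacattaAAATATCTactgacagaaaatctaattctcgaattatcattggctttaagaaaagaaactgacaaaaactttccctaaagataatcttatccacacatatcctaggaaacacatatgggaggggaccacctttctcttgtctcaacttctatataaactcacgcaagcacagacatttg
PORB: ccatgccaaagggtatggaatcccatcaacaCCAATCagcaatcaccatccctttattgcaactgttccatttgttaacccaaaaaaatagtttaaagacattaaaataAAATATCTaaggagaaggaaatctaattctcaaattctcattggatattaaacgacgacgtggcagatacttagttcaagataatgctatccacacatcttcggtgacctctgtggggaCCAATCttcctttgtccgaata
PORC: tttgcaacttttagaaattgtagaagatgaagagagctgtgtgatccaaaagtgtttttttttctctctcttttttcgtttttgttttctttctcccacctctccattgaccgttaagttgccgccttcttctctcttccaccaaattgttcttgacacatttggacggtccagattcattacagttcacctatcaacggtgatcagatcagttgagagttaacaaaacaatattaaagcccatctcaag

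PORB held 2 CCAATC matches, which began 219 and 22 bases before the gene start, and 1 evening element, which began at 141 bases. PORA held 1 evening element, at 179 bases, and PORC held none of the 4 motifs in this window. In the window of all 17832 tested nuclear protein-coding genes, 10.6% held CCAATC, 4.93% held AAATATCT, 7.53% held CACGTG and 1.32% held CACGCGC. Over the 10 listed genes, CCAATC was found in 2 (PORB and GUN4), AAATATCT in 2 (PORA and PORB), CACGTG in 2 (CRD1 and CAO) and CACGCGC in 0. Such a match describes the letters and not a bound site.

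The G-box genes are shown next, since CAO had the highest ratio after PORB and CRD1 a ratio close to 0. CAO lies at chr1:16851272-16851521 on the minus strand and CRD1 at chr3:21076255-21076504 on the plus strand. In both, a G-box began 52 bases before the gene start, and CAO held a further one at 32 bases.
CAO: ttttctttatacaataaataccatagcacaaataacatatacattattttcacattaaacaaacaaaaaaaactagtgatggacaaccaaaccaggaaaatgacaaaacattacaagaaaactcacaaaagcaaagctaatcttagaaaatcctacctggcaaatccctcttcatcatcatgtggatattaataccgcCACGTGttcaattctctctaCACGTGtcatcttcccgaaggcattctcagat
CRD1: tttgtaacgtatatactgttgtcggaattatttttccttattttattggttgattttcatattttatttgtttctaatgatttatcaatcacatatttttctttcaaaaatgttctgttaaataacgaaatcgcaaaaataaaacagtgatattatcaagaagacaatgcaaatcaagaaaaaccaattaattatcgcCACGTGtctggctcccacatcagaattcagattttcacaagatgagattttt

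**Figure D4:**
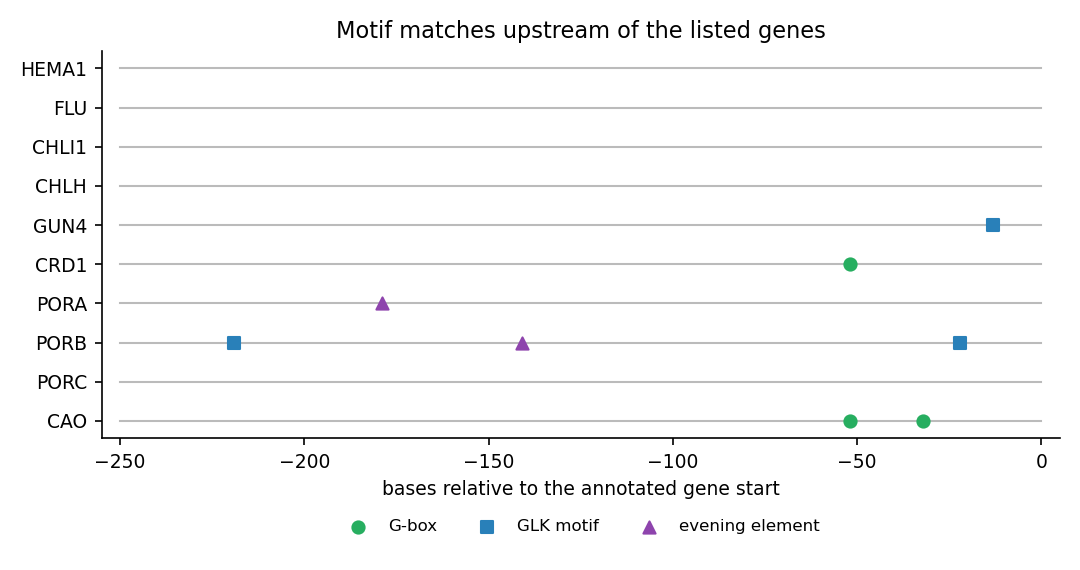
Positions of motif matches in the 250 bases upstream of each of the 10 listed genes, with the distance to the annotated gene start in bases on the horizontal axis and genes in pathway order. Circles are G-boxes, squares GLK motifs and triangles evening elements. PORB carries 3 matches, and HEMA1, FLU, CHLI1, CHLH and PORC carry none.

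Ranked by deposited level in wild type, the listed genes ran from CRD1 through CHLH, HEMA1, CHLI1, CAO, PORC, GUN4 and PORB to FLU, and the order in bts-1 was the same. With chromosome 3 values rescaled, GUN4 moved to place 3, between CHLH and HEMA1, and FLU passed PORB in wild type but not in bts-1. HEMA1 and CHLI1, at 306 and 301 FPKM in wild type, were the closest neighbours in the order on the log2 scale. With 1 library per genotype, no pair of neighbours can be shown to differ.

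The wider pathway was described from lists of 44 further genes, of which 39 were measured. Among these, 0 passed 2-fold upward and 0 downward, 27 ratios were positive and 12 negative, and the median log2 ratio was 0.11. Over all tested genes 1.92% passed 2-fold upward and 3.63% downward, 54.8% were positive and the median was 0.04. The shared steps from aminolevulinic acid to protoporphyrin IX had 9 of 10 genes measured, 7 with a positive ratio, and a median of 0.20. HEME1 (AT3G14930), a uroporphyrinogen decarboxylase, had the highest ratio there, with deposited levels of 5.16 and 5.73 for a chromosome 3 gene. The remaining genes of the magnesium branch had 9 of 9 measured, 8 with a positive ratio, and a median of 0.08. In that list CHLI2 was highest at 0.49 and LIL3:1 (AT4G17600), which anchors the enzyme that makes phytol, lowest at -0.02.

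At the branch point for heme both ferrochelatase genes had negative ratios. Over all tested genes 54.8% were positive, and the median absolute log2 ratio was 0.25. FC2 (AT2G30390), the main ferrochelatase of green tissue, stood at 6.36 for wild type and 6.08 for bts-1, and FC1 (AT5G26030), the other ferrochelatase, at 3.79 and 3.62. Their log2 ratios were -0.28 and -0.17, and their summed FPKM was 94.2 and 78.1. The FPKM of CHLD relative to that of FC2 was 1.45 in wild type against 2.13 in bts-1, and that of the listed gene CHLH relative to FC2 was 11.9 and 14.2. Such quotients depend on the subunit chosen, since log2 ratios were 0.27 for CHLD, 0.49 for CHLI2, -0.03 for CHLH and -0.11 for CHLI1. Over the list of heme, bilin and siroheme genes, 7 of 9 were measured, 4 had a positive ratio, 0 passed 2-fold and the median was 0.12. Among all tested genes 1.92% passed 2-fold upward and 3.63% downward, and the median was 0.04. HO2 (AT2G26550), a heme oxygenase relative, was highest at 0.32.

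Genes that turn chlorophyll b back to a or break chlorophyll down showed no common direction. Of 9 measured among 10, 5 ratios were positive, 4 were negative, 0 passed 2-fold and the median was 0.01. The shares over all tested genes were 54.8% positive, 1.92% past 2-fold upward and 3.63% downward, with a median of 0.04. CLH2 (AT5G43860), a chlorophyllase, stood at 1.85 and 1.31, a low level in both libraries. NYC1 (AT4G13250), a chlorophyll b reductase and so an enzyme that works against the product of CAO, stood at 5.59 and 6.06, and was picked out with its value in view.

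Regulators of the pathway had 10 of 10 genes measured, 4 with a positive ratio, 0 past 2-fold and a median log2 ratio of -0.07. All tested genes had 54.8% positive, 1.92% past 2-fold upward, 3.63% downward and a median of 0.04. HY5 (AT5G11260), a transcription factor that promotes light-dependent development and activates pathway genes, stood at 3.87 for wild type and 2.99 for bts-1, a log2 ratio of -0.88. The GLK factors, whose motif was searched above, had log2 ratios of -0.02 for GLK1 (AT2G20570), at 6.02 in wild type, and of 0.29 for GLK2 (AT5G44190), at 6.82 in wild type; both were picked out with their values in view.

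Light-harvesting proteins bind most of the chlorophyll of a leaf. Of their 20 genes, 18 had a positive ratio and 1 passed 2-fold, LHCB1.4 (AT2G34430), at 8.96 and 10.34, and the median was 0.27. Over all tested genes 54.8% had a positive ratio and 1.92% passed 2-fold upward, and among the 1460 genes at an FPKM of 100 or more 48.4% were positive. Reads of near-identical LHCB1 copies may not be separable. The summed FPKM of all 20 light-harvesting genes was 1.21 times as high in bts-1 as in wild type. For the 9 listed synthesis genes the quotient was 1.02. Both sums include chromosome 3 genes at their deposited, uncertain levels. The CCAATC motif was found upstream of 10 of these 20 genes, of 1 of the 44 further pathway genes and of 2 of the 10 listed genes. Its share over all tested nuclear protein-coding genes was 10.6%. CACGTG was found in 4 of the 20 and 7 of the 44, AAATATCT in 1 and 1, and CACGCGC in 0 and 0. Motif counts over the light-harvesting genes were not part of the plan.

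Some genes are known from the flu mutant, in which free protochlorophyllide releases singlet oxygen on illumination. Their deposited levels ran from 1.32 to 3.31 in wild type and from 0.84 to 1.34 in bts-1. Wild-type levels exceeded those of 7.26% to 41.7% of tested genes, and bts-1 levels those of 1.89% to 7.55%. All 4 were measured, but as deposited SIB1 and AT5G64870 reached an FPKM of 1 in wild type only. After rescaling, BAP1, at 1.79 and 0.62, and AT3G28580, at 1.44 and 0.37, also reached it in wild type only. Rescaled SIB1 reached it in both libraries, at 2.89 and 1.26. For this reason no count or median over the 4 is given. BAP1 (AT3G61190), a membrane-associated repressor of cell death, stood at 2.70 for wild type and 1.14 for bts-1. AT3G28580, which encodes an AAA-type ATPase, stood at 3.31 and 1.34, and SIB1 (AT3G56710), a plastid sigma factor binding protein, at 2.22 and 0.84. AT5G64870, a membrane-associated protein gene, stood at 1.32 and 0.88. BAP1, AT3G28580 and SIB1 lie on chromosome 3, and with rescaled values their log2 ratios were -1.17 for BAP1, -1.07 for AT3G28580 and -1.64 for SIB1, against deposited ratios of -1.57, -1.97 and -1.38. Several of these genes also respond to pathogens and wounding, and the part of such responses was not tested.

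**Figure D5:**
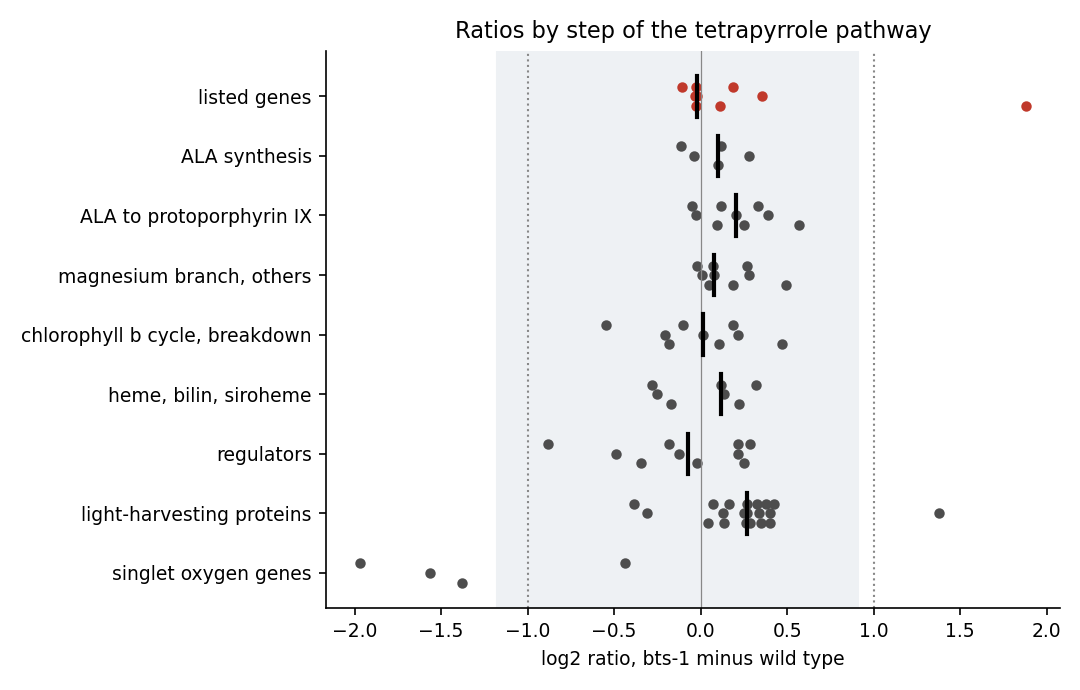
Log2 ratio of each measured gene by pathway list, with the listed genes in the top row, a black bar at the median of each list but the last, dotted lines at a 2-fold difference and shading over the central 95% of all tested genes (-1.18 to 0.91). ALA is aminolevulinic acid. PORB at 1.88 and LHCB1.4 at 1.38 stand right of the shading. In the row of singlet oxygen genes BAP1, AT3G28580 and SIB1 stand left of it at their deposited ratios. Rescaled ratios, which are not drawn, were -1.17, -1.07 and -1.64 for these 3 chromosome 3 genes. AT5G64870 at -0.44 lies inside the shading. As deposited, SIB1 and AT5G64870 reached the minimum FPKM in wild type only, and after rescaling BAP1 and AT3G28580 did so. Lower bts-1 values are thus partly built into this row, and no result is drawn from it.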

How the data were processed

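RNA from shoots was sequenced in 1 library each of wild type and bts-1 with a directional kit, per the labels' protocols. Tools listed by the submitters' processing notes, without roles or order, are HTSeq 0.9.1, TopHat2 2.1.0, Bowtie, cutadapt 1.12 and CASAVA 1.8.2, with the build TAIR10. The deposited values are titled normalized FPKM but were read as log2(FPKM + 1): they span 0 to 15.17, and sums of FPKM weighted by exon length came to 1589846 in wild type under log2 and 26824110 under a natural log. Sorted values of the columns were identical within 0.001 at 99.1% of ranks, as after quantile normalization, a step no label records, so whole reads could not be recovered and every ratio is relative to the other genes. The design had assumed linear FPKM.

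The members and the 11 gene lists were chosen with earlier results of these data known. The 2 rows with neither symbol nor description were left out. Ratios are differences between columns, and FPKM is 2 to the power of the value, minus 1. Named genes are all listed genes, list members with an absolute log2 ratio of at least 0.5 (otherwise the highest and lowest), and isoform partners (CHLI2, CHLD, HEMA2, FC1, FC2). Upstream and coding sequences were read from the RefSeq TAIR10.1 genome with its own annotation, whose name differs from the submitters' build. Coding sequences were aligned globally with Biopython 1.88, and identity is per aligned column. For rescaling, each chromosome 3 FPKM was divided by the gene's own exon length and multiplied by that of its successor in identifier order, passing over lncRNA and antisense loci. It overcorrects in part, with a slope on the next gene's length of 0.28 afterwards. The ratio calculation was tested on simulated data.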

Additional observations from a re-analysis of the deposited data

How the results depend on the processing

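The alternatives were pseudocounts of 0.1 and 5, no minimum, a minimum FPKM of 5, centring on the nuclear median, equal nuclear sums, rescaled or omitted chromosome 3 values, omission of genes at either library's lowest value, and a 1.5-fold threshold. Under each of these, 1 listed gene, PORB, passed the threshold upward and 0 downward. For PORB several alternatives could not differ from the main setting. It lies on chromosome 4 and well above the minimum, so its ratio stayed at 1.88 under the minimum, chromosome 3 and lowest-value settings. The PORB log2 ratio lay between 1.74, with a pseudocount of 5, and 1.92, and each other listed gene moved by under 0.1 and kept its sign. The median of the listed genes was 0.0805 without chromosome 3, which leaves 6 genes. Over all genes, the counts at least 2-fold higher and lower of 356 and 672 were 735 higher with a pseudocount of 0.1, 101 and 254 with 5, 198 higher with a minimum FPKM of 5, and 1394 and 1726 at 1.5-fold. Leaving PORA out of the sum of reductase genes changed nothing, since it has no row. Values without replicates were taken as unmoved within 0.1. No paired analysis was possible because each genotype has 1 library. For the same reason no library could be left out.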
